A study of Mus musculus with 6 samples.

Results

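Eosinophils, basophils and mast cells are granulocytes of allergic and antiparasite responses. They were followed here through 10 genes: Prg2, Prg3, Epx and Il5ra, which mark eosinophils; Mcpt8, which marks basophils; Cma1, which marks connective tissue mast cells; and Fcer1a, Ms4a2, Cpa3 and Hdc, which basophils and mast cells share. The genes were chosen by name, and each was represented by its row on the array with the highest mean over all arrays. All 10 were found among 19938 genes measured, each with 1 row. The series holds 6 Affymetrix Mouse Gene 1.0 ST arrays, 3 for bone marrow Scf-GFP+ cells and 3 for whole bone marrow, all from young adult C57BL/6 mice. Scf-GFP+ cells came from knock-in mice that carry 1 copy of green fluorescent protein in the gene for stem cell factor, Kitl, and they were sorted in 2 passes. The whole bone marrow came from wild-type animals, with no second sort named, so cell population, genotype and sorting cannot be told apart. Each array carried amplified RNA of 5000 cells. The knock-in reports the activity of Kitl and does not by itself name a cell type. The samples of a group are described as independent aliquots, with no mention of separate animals. The p-values therefore reflect only how far these aliquots differ, which in marrow may be technical. Sex-linked genes, given below, show that the Scf-GFP+ aliquots did not all come from the same animal. The comparison asks which transcripts set the cells that make stem cell factor apart from the marrow around them.

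Eosinophils carry granules packed with cationic proteins. Major basic protein (Prg2), its close relative (Prg3) and eosinophil peroxidase (Epx) are made in large amounts while the cell matures in the marrow, under the cytokine Il5, whose specific receptor chain is Il5ra. Basophils also mature in the marrow, whereas mast cells leave it as progenitors and mature in tissues, where they depend on stem cell factor acting on the receptor Kit. Basophils and mast cells bind IgE through a receptor whose alpha chain is Fcer1a and whose beta chain is Ms4a2, and they store histamine, which Hdc makes from histidine, together with proteases such as Cpa3, Mcpt8 and Cma1. In the mouse Hdc is also expressed by immature myeloid cells and neutrophils.

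GATA factors, which bind the letters GATA in DNA, are central regulators of all 3 lineages, so the promoters of the genes were read for this motif. Promoter sequences of 9 of the 10 genes were in the RefSeq table (mouse build GRCm38.p6), and the 250 bases before the listed start were searched on both strands for AGATAA and TGATAA, which can overlap each other by their end bases and did not do so here. At least 1 of these motifs was found for 5 of the 9 genes, Prg3, Cpa3, Fcer1a, Ms4a2 and Il5ra, against 16.6% of 32851 promoter windows of that length. These 5 promoters are given 5′ to 3′ on the strand of the gene, with each match on either strand in capitals, because they carry the motif at different places.
Prg3, GRCm38.p6 chr2:84987965-84988214, plus strand: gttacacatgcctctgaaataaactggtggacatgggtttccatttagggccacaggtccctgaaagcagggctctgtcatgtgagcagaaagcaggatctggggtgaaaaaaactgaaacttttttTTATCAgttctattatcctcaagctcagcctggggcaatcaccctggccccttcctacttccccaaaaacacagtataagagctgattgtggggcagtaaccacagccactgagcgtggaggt
Cpa3, GRCm38.p6 chr3:20242182-20242431, minus strand: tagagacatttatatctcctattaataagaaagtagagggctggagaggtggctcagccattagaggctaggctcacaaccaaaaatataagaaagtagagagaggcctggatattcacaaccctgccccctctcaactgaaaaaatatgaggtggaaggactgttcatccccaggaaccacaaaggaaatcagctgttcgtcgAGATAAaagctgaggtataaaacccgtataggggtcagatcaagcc
Fcer1a, GRCm38.p6 chr1:173227230-173227479, minus strand: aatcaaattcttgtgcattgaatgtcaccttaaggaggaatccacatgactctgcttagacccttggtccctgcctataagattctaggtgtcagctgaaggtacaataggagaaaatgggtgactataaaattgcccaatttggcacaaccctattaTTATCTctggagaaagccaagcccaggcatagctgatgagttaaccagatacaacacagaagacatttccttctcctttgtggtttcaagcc
Ms4a2, GRCm38.p6 chr19:11623720-11623969, minus strand: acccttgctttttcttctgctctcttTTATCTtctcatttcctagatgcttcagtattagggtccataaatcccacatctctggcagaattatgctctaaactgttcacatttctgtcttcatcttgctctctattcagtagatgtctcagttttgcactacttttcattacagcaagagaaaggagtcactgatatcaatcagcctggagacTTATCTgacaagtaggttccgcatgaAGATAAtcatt
Il5ra, GRCm38.p6 chr6:106749038-106749287, minus strand: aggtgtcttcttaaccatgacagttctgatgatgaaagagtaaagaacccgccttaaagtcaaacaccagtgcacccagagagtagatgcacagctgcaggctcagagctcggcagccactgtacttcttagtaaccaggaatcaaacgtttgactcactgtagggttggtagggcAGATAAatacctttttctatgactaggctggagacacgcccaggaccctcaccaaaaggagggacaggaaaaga
Counted on the strand of the gene, the motif in Cpa3 began 46 bases before the start, in Il5ra 74, in Fcer1a 92 and in Prg3 123 bases before it. Ms4a2 held AGATAA 3 times, beginning 224, 37 and 11 bases before the start. Epx, Mcpt8, Hdc and Cma1 held neither motif in these windows. Of other motifs searched, TATAAA was found in Epx, Cpa3 and Fcer1a (12.4% of all windows), TTGCNNAA, a C/EBP motif, in Fcer1a (9.56%), CACCTG, an E-box, in Mcpt8 (17.2%), and AGGAAGT, an Ets motif bound by Spi1, in none of the 9 (7.69%). These are matches of letters and not measured binding. Genes with and without GATA letters were found among called genes and among genes not called, by the rule given with the values: of the 5 shown, Prg3 and Cpa3 were called and Fcer1a, Ms4a2 and Il5ra were not.

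Values are log2 expression as deposited, differences are Scf-GFP+ minus whole marrow, in log2 units and with the standard error (SE) from limma. A gene was called when its limma adjusted p, over all 19938 genes, was below 0.05 and its difference reached 2-fold. By this rule 6 of the 10 genes were called lower in Scf-GFP+ cells, Prg2, Prg3, Epx, Mcpt8, Cpa3 and Hdc, and 0 were called higher. Over all genes 7.89% were called lower and 9.01% higher. The median difference was -2.01 over the 10 genes and -0.08 over all genes. In 9 of the 10, all Scf-GFP+ arrays lay below all marrow arrays, a state reached by 26.4% of all genes. Il5ra was the exception. The gap between the nearest arrays was 5.78 for Prg2 but only 0.12 for Ms4a2 and 0.04 for Cma1. The count of 6 was the same without Scf-GFP+ replicate 1, an array that stands apart in neutrophil transcripts. In such bulk samples fewer cells of a type and less RNA per cell cannot be told apart.

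**Figure D1:**
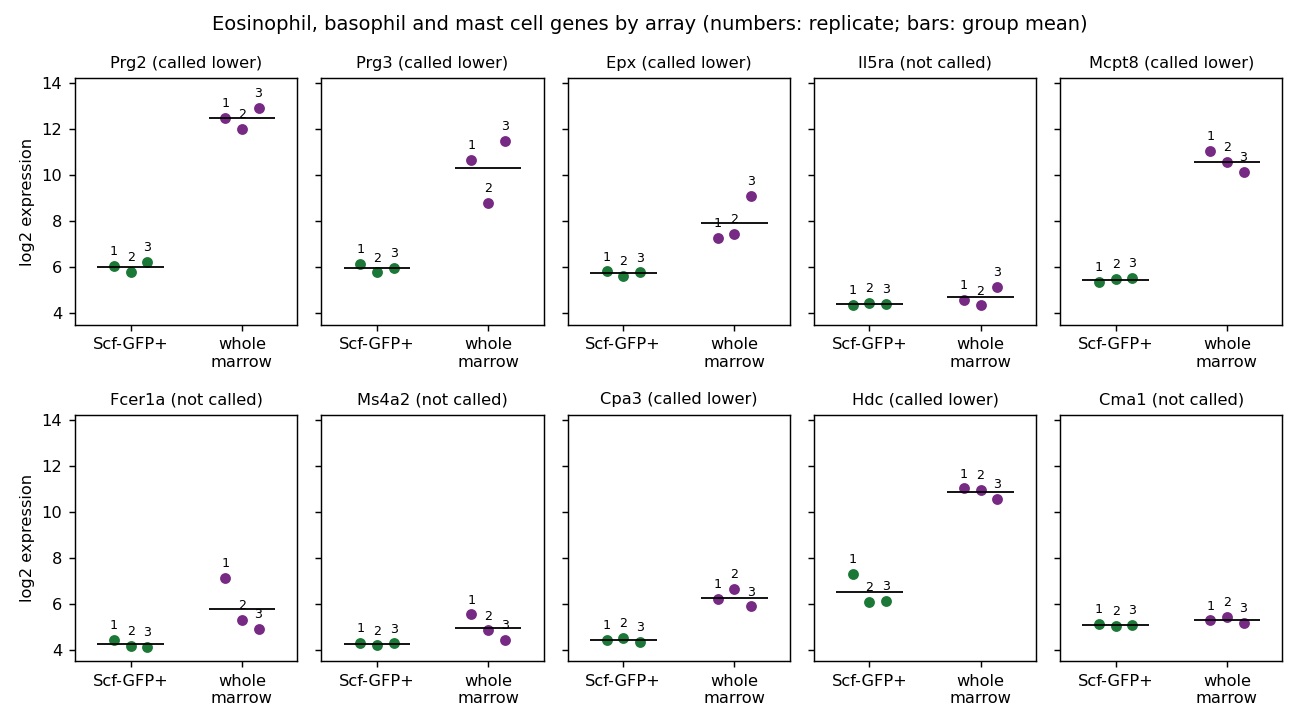
Log2 expression (vertical axis) of the 10 genes on the 3 Scf-GFP+ arrays (green) and the 3 whole marrow arrays (purple), 1 panel per gene, with replicate numbers beside the points and bars at the group means. Scf-GFP+ values of Prg2 lie between 5.78 and 6.22 and marrow values between 12.00 and 12.92, while the groups overlap for Il5ra.

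All 3 granule protein genes of eosinophils were called lower, with differences from -6.45 to -2.20, and Prg3 and Epx varied widely between the marrow arrays. Prg2 measured 6.06, 5.78 and 6.22 on the 3 Scf-GFP+ arrays and 12.48, 12.00 and 12.92 on the 3 marrow arrays. The groups stood 5.78 apart at their nearest arrays, and the difference was -6.45 ± 0.25 SE, 87.4-fold (n = 3 arrays per group, limma adjusted p = 9.21e-06). Marrow values of Prg2 came close to the upper end of the arrays, whose highest value lay between 13.3 and 13.4, where resolution is lost. Prg3 measured 6.13, 5.77 and 5.96 in Scf-GFP+ cells and 10.65, 8.79 and 11.47 in marrow. Its Scf-GFP+ arrays were close together, but the marrow arrays spread over 2.69, and the difference was -4.35 ± 0.63 SE (limma adjusted p = 0.00272). Without whole marrow replicate 2, the lowest, it was -5.11, and without replicate 3, the highest, -3.77. Epx, the peroxidase that makes hypobromous acid, measured 5.82, 5.63 and 5.77 in Scf-GFP+ cells and 7.28, 7.44 and 9.09 in marrow. Marrow replicate 3 stood alone, and all 3 marrow arrays lay above the Scf-GFP+ arrays. The difference of Epx was -2.20 ± 0.46 SE (limma adjusted p = 0.0132), and it was -1.62 without marrow replicate 3.

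The receptor chain of the same lineage was not called. Il5ra measured 4.36, 4.45 and 4.42 in Scf-GFP+ cells and 4.58, 4.34 and 5.14 in marrow. The groups overlapped through marrow replicate 2, and the difference of -0.27 ± 0.21 SE was not called (limma adjusted p = 0.383, 95% interval -0.77 to 0.22). All 6 values of Il5ra lay below the first quartile of their array, where arrays lose resolution.

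Of the 3 protease genes among the 10, Mcpt8, the basophil gene, differed most. It measured 5.35, 5.48 and 5.53 in Scf-GFP+ cells and 11.06, 10.57 and 10.14 in marrow. Every marrow array was at least 4.61 above every Scf-GFP+ array, and the difference was -5.13 ± 0.23 SE, 35.1-fold (limma adjusted p = 1.5e-05). Cpa3, a carboxypeptidase of mast cells that basophils and blood progenitors also express, measured 4.42, 4.52 and 4.34 in Scf-GFP+ cells and 6.23, 6.64 and 5.89 in marrow. The groups were 1.37 apart, the Scf-GFP+ values lay below the first quartile of their arrays, and the difference was -1.83 ± 0.20 SE (limma adjusted p = 0.000684). Cma1, the mast cell chymase, measured 5.11, 5.05 and 5.07 in Scf-GFP+ cells and 5.28, 5.44 and 5.16 in marrow. The groups came within 0.04 of each other, and the difference of -0.21 ± 0.11 SE was not called (limma adjusted p = 0.221, 95% interval -0.48 to 0.06). All values of Cma1 except that of marrow replicate 2 lay below the first quartile of their array, where arrays lose resolution.

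The alpha and beta chains of the IgE receptor were highest on 1 marrow array and nearer to the Scf-GFP+ level on the others. Fcer1a measured 4.43, 4.18 and 4.11 in Scf-GFP+ cells and 7.11, 5.32 and 4.91 in marrow. Marrow replicate 1 stood well above the other marrow arrays, and the difference of -1.54 ± 0.54 SE was not called (limma adjusted p = 0.0828, 95% interval -2.83 to -0.25). Without marrow replicate 3 it was called at -1.98 (limma adjusted p = 0.0491). Without marrow replicate 1 it was -0.87, with an adjusted p past the threshold but under 2-fold (limma, 0.0228). With any other single array left out, the limma adjusted p of Fcer1a lay between 0.105 and 0.173. Ms4a2 measured 4.32, 4.20 and 4.28 in Scf-GFP+ cells and 5.54, 4.84 and 4.44 in marrow. Its marrow arrays stood in the same order as those of Fcer1a, and its difference of -0.68 ± 0.27 SE was not called (limma adjusted p = 0.116, 95% interval -1.31 to -0.04). Ms4a2 was -0.38 without marrow replicate 1. Without replicate 3 it was -0.92, with an adjusted p past the threshold but under 2-fold (limma, 0.0391; the alternatives ranged from 0.0391 to 0.377). All Scf-GFP+ values of Fcer1a and Ms4a2 lay below the first quartile of their array, where arrays lose resolution. So did marrow replicate 3 of Fcer1a and marrow replicates 2 and 3 of Ms4a2. Fcer1g, the gamma chain that this receptor shares with other Fc receptors on many blood cells, was called lower at -2.62 ± 0.31.

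Hdc, which makes histamine, measured 7.31, 6.07 and 6.12 in Scf-GFP+ cells and 11.02, 10.94 and 10.57 in marrow. The marrow arrays lay within 0.45 of each other, Scf-GFP+ replicate 1 stood above the other two, and the groups were 3.25 apart. The difference was -4.34 ± 0.35 SE, 20.2-fold (limma adjusted p = 0.000177), and it was -4.74 without Scf-GFP+ replicate 1. That array also carried neutrophil transcripts. Over 12 neutrophil markers, among them Ly6g, Ngp and S100a8, the mean level was 9.92 on Scf-GFP+ replicate 1, 5.65 and 5.77 on replicates 2 and 3, and between 12.11 and 12.19 on the marrow arrays. All 12 lay lower on each Scf-GFP+ array than on any marrow array, and 10 were called. The part of these transcripts in the Hdc value of replicate 1 was not tested. Over 6 markers of neutrophil progenitors, among them Mpo and Elane, the 3 Scf-GFP+ arrays were between 6.13 and 6.17. For Prg2, Prg3, Epx, Mcpt8 and Cpa3 replicate 1 did not stand apart, and the SD over the Scf-GFP+ arrays was 0.09 to 0.22, against 0.70 for Hdc.

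**Figure D2:**
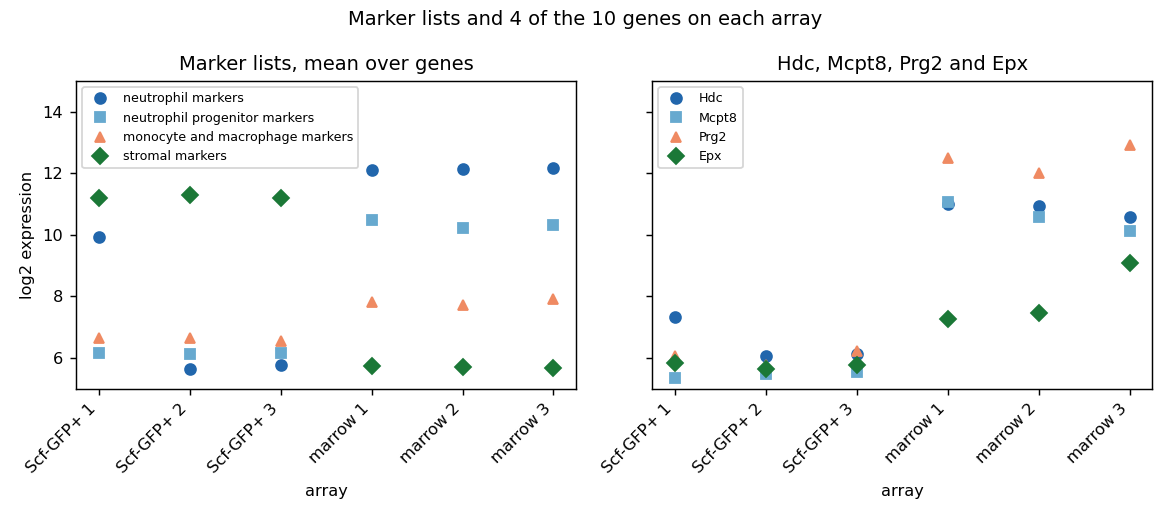
Mean log2 expression over 4 marker lists (left) and log2 expression of Hdc, Mcpt8, Prg2 and Epx (right) on each of the 6 arrays. Neutrophil markers stand at 9.92 on Scf-GFP+ replicate 1 and at 5.65 and 5.77 on the other two, and Hdc at 7.31 against 6.07 and 6.12, while stromal markers lie between 11.19 and 11.28 on all 3.

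Other facts of the arrays bear on these values. All 10 stromal markers, among them Cxcl12, Lepr and the sorted-on Kitl, were called higher in Scf-GFP+ cells, and their mean lay between 11.19 and 11.28 there and between 5.67 and 5.73 in marrow. Of 7 erythroid and 7 B lineage markers measured in each list, all were called lower in Scf-GFP+ cells, as were 5 of 10 monocyte and macrophage markers and 1 of 4 megakaryocyte markers. Of 7 endothelial markers 2 were called higher, and among the monocyte and macrophage markers Vcam1 was. Xist, expressed in female cells, was 11.50 and 11.81 on Scf-GFP+ replicates 1 and 2 and between 4.99 and 5.10 on the other 4 arrays. Kdm5d, on the Y chromosome, was 5.57 and 5.15 on Scf-GFP+ replicates 1 and 2, 9.09 on replicate 3 and between 6.93 and 7.73 in marrow. The Scf-GFP+ arrays therefore did not all come from the same animal, while nothing of the kind separates the marrow arrays. A term for that split sets only Scf-GFP+ replicate 3 against the marrow arrays, so it cannot show how the full groups depend on the split. Epx was -2.17 with it.

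The marrow arrays differed from one another in several of these genes more than in most. The median standard deviation (SD) over the 3 marrow arrays was 0.16 for all genes. It was 1.38 for Prg3, 1.17 for Fcer1a, 1.00 for Epx and 0.56 for Ms4a2, and 99.9%, 99.7%, 99.4% and 94.9% of all genes had a smaller SD. In Scf-GFP+ cells the SD was 0.18 for Prg3, 0.17 for Fcer1a, 0.10 for Epx and 0.06 for Ms4a2, beside a median of 0.17 over all genes.

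The eosinophil genes among the 10 and some of the basophil and mast cell genes were highest on different marrow arrays. Prg2, Prg3, Epx and Il5ra were all highest on marrow replicate 3, where Prg3 lay 1.17 and Epx 1.15 above their marrow means. Ear6, an eosinophil-associated ribonuclease, and Alox15, a lipoxygenase of eosinophils and macrophages, were also highest on replicate 3, by 0.61 and 0.74 above their means. Both were lowest on replicate 2, as were Prg2, Prg3 and Il5ra, while Epx was lowest on replicate 1. Siglecf, a surface lectin of eosinophils, was 0.17 above its mean on replicate 3, but Ccr3, their eotaxin receptor, was highest on replicate 2. Mcpt8, Fcer1a, Ms4a2 and Hdc were highest on replicate 1 and lowest on replicate 3. Fcer1a lay 1.33 above its mean on replicate 1, and Il4, a cytokine that basophils make, 0.91 above its own. Cpa3, Cma1 and Prss34, a basophil and mast cell protease, were highest on replicate 2. Over all genes 37.9% were highest on replicate 1, 29.6% on replicate 2 and 32.5% on replicate 3. The 12 neutrophil markers had means of 12.11, 12.15 and 12.19 on marrow replicates 1, 2 and 3. The genes beyond the 10 were chosen for this paragraph after their values were seen, and the pattern is a description of 3 arrays with no test.

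**Figure D3:**
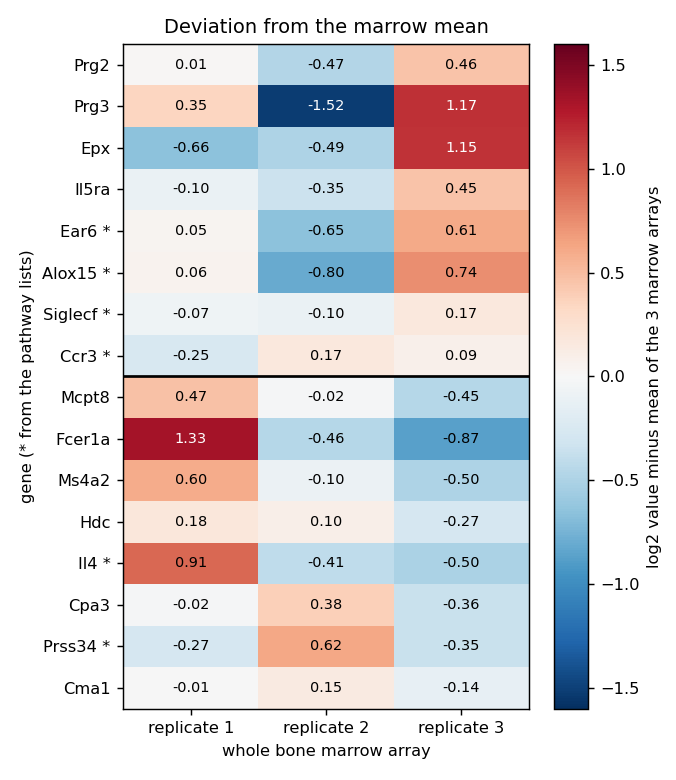
Log2 value minus the mean of the 3 whole marrow arrays (colour and printed number) for eosinophil genes (above the line) and basophil and mast cell genes (below it) on each marrow array. Prg3 and Epx lie 1.17 and 1.15 above their means on replicate 3, and Fcer1a lies 1.33 above its mean on replicate 1.

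Other granule and mediator genes of these lineages were lower or were not called. Of 28 such genes listed, 18 were measured by a row of their own, and the median was -0.23. Of these 7 were called lower and 0 higher, beside 7.89% and 9.01% of all genes. Ear6 was lower by -5.44 ± 0.32 SE, 43.4-fold, with values of 5.53, 5.12 and 5.59 in Scf-GFP+ cells and 10.90, 10.20 and 11.46 in marrow. It is a member of a family of near-identical ribonucleases, so which copy was measured is uncertain. Of the lipid mediator genes measured, Alox5ap was lower by -4.60 ± 0.47, Alox5 by -4.08 ± 0.26 and Alox15 by -3.60 ± 0.36. Ltc4s, which makes leukotriene C4, and Hpgds, which makes prostaglandin D2, differed by -0.21 ± 0.10 and -0.20 ± 0.10 and were not called. Alox5 and Alox5ap are also expressed by neutrophils and macrophages, and on Scf-GFP+ replicate 1 Alox5ap measured 8.09 against 6.52 and 6.15 on the others. Prss34 was lower by -2.29 ± 0.28 and Gzmb by -2.42 ± 0.22. The mast cell tryptases Tpsab1 and Tpsb2 differed by 0.12 ± 0.11 and -0.14 ± 0.10, and the chymases Mcpt1, Mcpt2 and Mcpt4 by -0.05, -0.20 and 0.02, and these 5 genes were not called. No direction is read from differences this close to 0. All values of Mcpt1, Mcpt2 and Mcpt4 also lay below the first quartile of their array, where arrays lose resolution.

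Receptors and the signalling chain behind them fell in part. Of 30 listed, 27 were measured, and the median was -0.67. Of these 10 were called lower and 1 higher, beside 7.89% and 9.01% of all genes. The largest were Btk at -4.29 ± 0.19, Syk, the kinase recruited by the IgE receptor, at -4.07 ± 0.24, the phospholipase Plcg2 at -3.38 ± 0.34 and the phosphatase Inpp5d at -3.37 ± 0.25, all of which other blood cells also express. Csf2rb, the beta chain that Il5ra pairs with and that also serves the receptors for Il3 and Csf2, was lower by -2.91 ± 0.26, with 6.36, 6.09 and 5.66 in Scf-GFP+ cells and 8.58, 8.85 and 9.42 in marrow. The member called higher was Plcg1, a phospholipase with broad expression, at 1.55 ± 0.28. Kit, the receptor for stem cell factor on mast cells and blood progenitors, measured 7.26, 7.76 and 7.30 in Scf-GFP+ cells and 7.45, 7.68 and 7.95 in marrow. The groups overlapped, and the difference of -0.26 ± 0.19 was not called.

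Transcription factors of these lineages were called in both directions. Of 16, all measured, 7 were called lower and 3 higher, beside 7.89% and 9.01% of all genes, and the median was -0.93. Spi1, which myeloid cells and B cells need, was lower by -3.90 ± 0.28, Cebpe, needed for the late maturation of eosinophils and neutrophils, by -3.41 ± 0.19, Gata1, which eosinophils, basophils, mast cells and red cells need, by -2.67 ± 0.16 and Irf8 by -2.64 ± 0.22. Gata2, a factor of mast cells and blood stem cells, differed by -1.04 ± 0.14 and was just past 2-fold. It fell short of 2-fold without marrow replicate 2 (-0.97) or replicate 3 (-0.98). The factors called higher were Runx1 at 2.16 ± 0.17, Cebpa at 1.42 ± 0.23 and Stat5a at 1.35 ± 0.27. Stat5a was 0.75, under 2-fold, with the term for Xist, which sets only Scf-GFP+ replicate 3 against marrow.

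**Figure D4:**
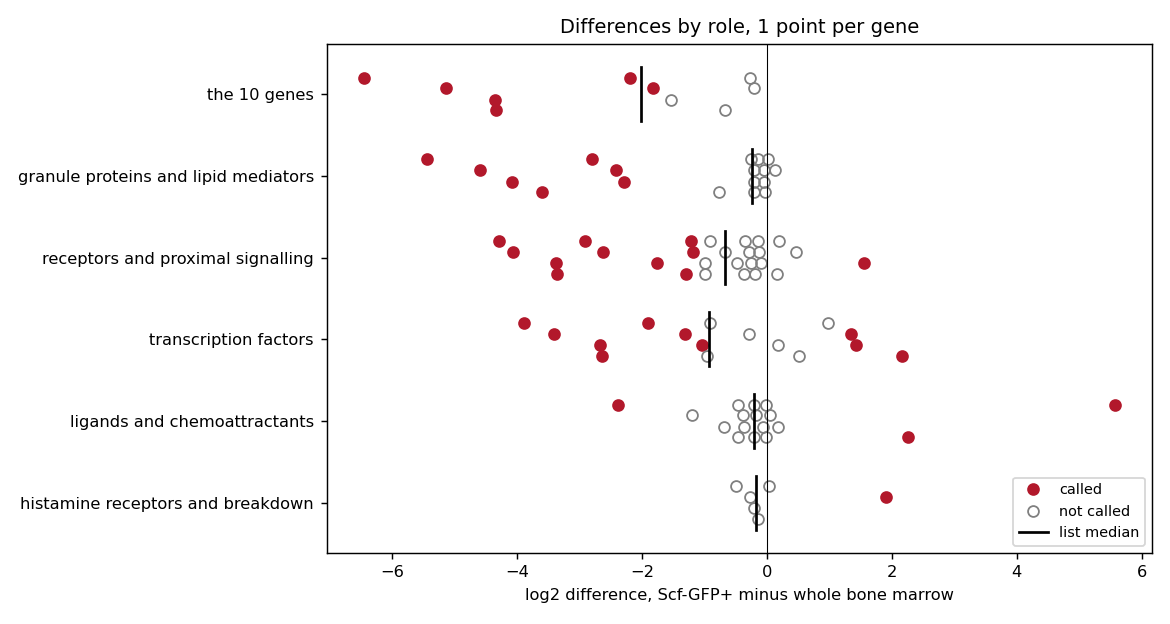
Log2 difference, Scf-GFP+ minus whole marrow (horizontal axis), for each gene of the 10 and of 5 lists by role, with called genes filled, others open and a bar at each list's median. The 10 genes have a median of -2.01, and among ligands Kitl at 5.57 and Tslp at 2.25 lie to the right.

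Ligands that act on these cells were called about as often as genes at large. Of 17 measured, 3 were called, 2 of them higher and 1 lower, beside 16.9% of all genes called in either direction, and their median was -0.20. Kitl, the gene the cells were sorted on, was higher by 5.57 ± 0.22, which checks the labels. Tslp, a cytokine that acts on basophils, mast cells and dendritic cells, measured 7.47, 7.74 and 7.67 in Scf-GFP+ cells and 5.34, 5.41 and 5.37 in marrow. The arrays within each group were close, and the difference was 2.25 ± 0.11 SE, 4.76-fold (limma adjusted p = 2.14e-05). Ccl5, a chemokine that attracts eosinophils and other leukocytes, was lower by -2.39 ± 0.35. Il4 measured 5.93, 5.38 and 5.41 in Scf-GFP+ cells and 7.69, 6.37 and 6.28 in marrow. Il4 differed by -1.20 ± 0.39 SE, was highest on marrow replicate 1 and was not called (limma adjusted p = 0.0668). It was -0.75 without that array, and it was called with the replicate block (limma adjusted p = 0.0174), with an intensity trend (0.0484) and without the dimmest 30% of genes (0.0497), over alternatives that ranged up to 0.205. Il5, Il3, Csf2 and Il33 differed by -0.06, -0.01, -0.17 and -0.01 and the eotaxins Ccl11 and Ccl24 by -0.20 and -0.37, and these 6 were not called. All values of Il5, Il3, Csf2 and Il33 lay below the first quartile of their array, where arrays lose resolution.

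Of 6 genes measured for the receptors and the breakdown of histamine, 0 were called lower and 1 higher, with a median of -0.18. A call of 1 in 6 is near the 16.9% over all genes. Hnmt, the methyltransferase that inactivates histamine inside cells, measured 7.62, 7.98 and 7.62 in Scf-GFP+ cells and 6.12, 5.89 and 5.50 in marrow. The groups did not overlap, and the difference was 1.90 ± 0.19 SE, 3.74-fold (limma adjusted p = 0.000521). Hrh1, Hrh2, Hrh3 and Hrh4, the histamine receptors, differed by -0.21, -0.49, -0.14 and 0.03, and Aoc1, which oxidises histamine outside cells, by -0.28. Hrh2 passed the adjusted p (limma, 0.0144) but not the 2-fold limit.

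Genes beside the 10 on the chromosome were called in part. Mcpt8 and Cma1 lie in a cluster of serine protease genes on chromosome 14 that runs from Cma1 to Gzmb and holds 15 protein-coding genes in RefSeq. Of the 13 measured by a row of their own, 4 were called lower, beside 7.89% of all genes. They were Mcpt8, Ctsg (-5.03 ± 0.15), which neutrophil progenitors express, Gzmc (-1.36 ± 0.20) and Gzmb. The other 9 lay between -0.21 and 0.20, among them Mcpt4, the protein-coding neighbour of Mcpt8 on one side, at 0.02 ± 0.11. All values of Mcpt1, Mcpt2, Mcpt4, Gzmd, Gzmg, Gzmn and Gzmf lay below the first quartile of their array, where arrays lose resolution. Prg2 and Prg3 stand beside each other on chromosome 2. P2rx3, an ATP-gated channel next to Prg3, was lower by -2.74 ± 0.32, and by -1.89 with the mean of its rows on the array. Slc43a3, a nucleobase transporter next to Prg2, was lower by -1.44 ± 0.26, while Rtn4rl2 beyond it differed by -0.09 ± 0.15 and was not called. Slc43a3 was -1.48 with the term for Xist, which sets only Scf-GFP+ replicate 3 against marrow. Ms4a2 belongs to a family of 21 genes on chromosome 19. Of 19 measured, 6 were called lower and 1 higher, beside 7.89% and 9.01% of all genes. Ms4a3, the neighbour of Ms4a2 and a gene of granulocyte progenitors, was lower by -4.29 ± 0.28. Ms4a6b, a gene of lymphoid and myeloid cells, was lower by -4.69 ± 0.11. Ms4a4d was higher by 5.09 ± 0.11, with 9.70, 9.83 and 9.98 in Scf-GFP+ cells and 4.76, 4.72 and 4.75 in marrow. These gene clusters were chosen after values were seen.

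**Figure D5:**
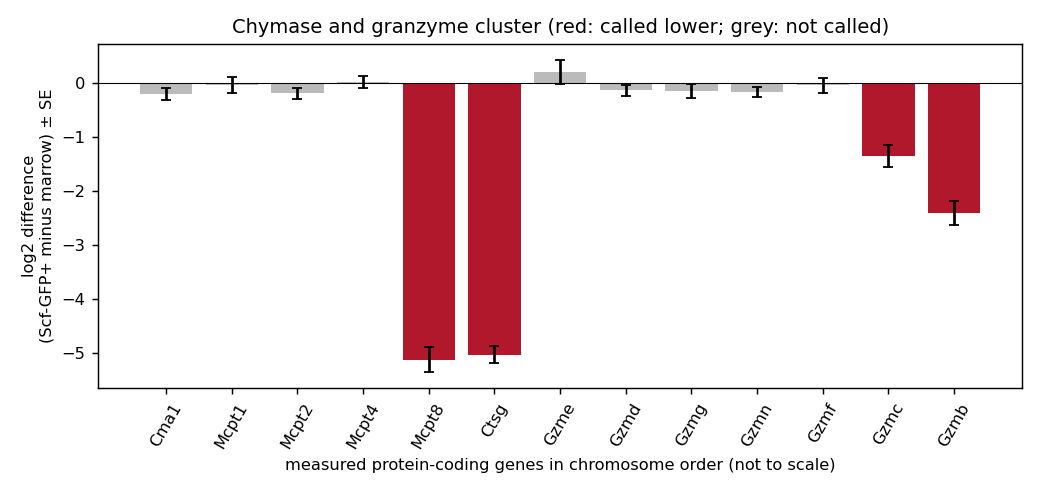
Log2 difference, Scf-GFP+ minus whole marrow, with limma's SE as error bars (vertical axis) for the 13 measured protein-coding genes of the chymase and granzyme cluster in chromosome order (horizontal axis). Mcpt8 at -5.13 and Ctsg at -5.03 stand side by side. Mcpt4, beside Mcpt8, is at 0.02, from values below the first quartile of every array.

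The genes whose log2 pattern over the 6 arrays came nearest to each of the 10 are given as a description, first for the 7 genes with the larger differences. Likeness was the root mean square distance between profiles, each centred on its own mean, over the 6 arrays and leaving out the 10 genes themselves. For Prg3 the nearest were Rnase12 (distance 0.49), Alox15 (0.53) and the class II antigen gene H2-Ab1 (0.55). For Mcpt8 they were the centromere gene Cenph (0.28), Ctsg (0.30) and the prostaglandin synthase Ptgs2 (0.31). For Hdc they were Ceacam1 (0.18), the kinetochore gene Nuf2 (0.19) and the lectin Clec4a2 (0.22), and for Prg2 an unnamed transcript model was followed by Gch1 (0.44) and the B cell gene Cd72 (0.47). For Epx they were Adssl1 (0.17), Cdca7l (0.18) and Ifi214 (0.20), all with their highest marrow value on replicate 3. For Fcer1a they were Gimap3 (0.22), Elovl7 (0.26) and P2ry10 (0.28), all highest on marrow replicate 1, and for Cpa3 Ogfrl1 (0.08), Dctd (0.11) and Kif24 (0.13). The 3 genes with the smallest differences had nearer profiles, led by Mrps9 for Ms4a2 (0.05), Olfr1281 for Il5ra (0.05) and Celf6 for Cma1 (0.03). The distance is largely set by the step between the groups, and it carries no test.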

How the data were processed

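The authors deposited log2 values of 28940 rows for 6 arrays. RMA, affy and limma are named, with no version or role, per the submitters' processing notes. Their genome build was not stated in the sources used here. The main analysis took the log2 table as it stands. Low values have no detection call, levels of different genes were not compared, and the number of arrays limits the precision. Exactly 1 gene symbol was listed for 21789 rows, several for 1621 and none for 5530, and symbols were updated through RefSeq (GRCm38.p6). For 999 genes with several rows the row with the highest mean was kept, leaving 19938 genes. Groups were compared with limma 3.58.1 (lmFit, eBayes) in R 4.3.3 without covariates, with Benjamini-Hochberg adjustment over all genes, and every adjusted p and every SE comes from that model. The fit was tested on simulated data. Members, pathway lists, marker lists and alternatives were chosen with earlier results of these data known. Named genes are the 10 members, up to 4 genes per list and direction with the largest differences among those called, and others that a list's description needs. Alternatives were each array centred on its median, quantile normalization, leaving out the dimmest 30% of genes, an intensity trend with robust eBayes, array weights, mean of a gene's rows, all rows tested, each array left out, a replicate block and a term for Xist. Arrays of the same replicate number did not deviate together (correlation of deviations across genes -0.06, -0.02 and 0.07), so no pairing was used.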

Additional observations from a re-analysis of the deposited data

How the results depend on the processing

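The 6 genes called lower among the 10 numbered from 6 to 7 when single arrays were left out and 6 with a replicate block. Without the dimmest 30% of genes they numbered 5, because Cpa3, Fcer1a, Ms4a2, Il5ra and Cma1 were not tested. The term for Xist set only Scf-GFP+ replicate 3 against marrow, and Epx was -2.17 with it. Prg2, Prg3, Mcpt8 and Hdc kept direction and call under all 15 alternatives, and Cpa3 under the 14 that tested it. Leaving out single arrays, Prg3 lay between -5.11 and -3.77, Epx between -2.53 and -1.62, and Fcer1a, called only without whole marrow replicate 3, between -1.98 and -0.87. Without Scf-GFP+ replicate 1, the counts called lower were 7 for granule and mediator genes, 11 for receptors and signalling and 6 for transcription factors. The ligands called lower were 1 in the reported analysis and 2 without the dimmest 30% of genes, with the intensity trend and with the replicate block, through Il4. The block changed no other call among the 10 genes and the 34 others run under every setting that could test them. It called 9 receptor and signalling genes lower in place of 10, and same-numbered arrays share only a number. That count was also 9 without the dimmest 30% of genes and without whole marrow replicate 3. It was 12 with median centring, quantile normalization or array weights and without whole marrow replicate 1. In the reported analysis Lat at -0.990 and Lat2 at -0.999 fell just short of 2-fold. For those 34 genes, 502 of 509 values under the alternatives kept direction and side of the threshold and none reversed. Values below the first quartile of their array, and Prg2 near the upper end, limit how well differences can be sized. Such low values include Il5ra on all arrays and Cma1 on all but whole marrow replicate 2.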
